A study of Mus musculus with 15 samples.

Results

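The heat shock and endoplasmic reticulum (ER) chaperone genes are the genes whose products fold new proteins, hold damaged ones in solution and pass the rest on for degradation. They were chosen by name alone, as every gene on the array named as an Hsp70, Hsp90, Hsp110, Hsp60, Hsp10 or small heat shock protein, as a J protein (the Dnaja, Dnajb and Dnajc genes) or as a protein disulfide isomerase (Pdia), together with 11 named genes of the unfolded protein response and of ER protein quality control. The rule found 87 of the 24336 gene symbols on the array, measured by 120 of its 55681 probes. Of the 87 genes, 62 had 1 probe and 25 had several, and each gene was read from its brightest probe. By role, 6 were sensors and transcription factors of the unfolded protein response, 18 ER chaperones and ER J proteins, 5 protein disulfide isomerases, 12 cytosolic Hsp70, Hsp110 and Hsp90 genes, 8 small heat shock proteins, 10 mitochondrial chaperones and J proteins, and 28 other J proteins. No probe carried the name Hspa1b.

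The series compared 3 groups of liver tumors from mice that had all received carbon tetrachloride (CCl4), a liver toxin, by intraperitoneal injection of 0.5 µl per g of body weight in olive oil, every 3 days according to the labels, over 16 weeks. One group was hepatocellular carcinoma (HCC), a tumor of hepatocyte type, from p53f/f mice, which carry floxed and undeleted Trp53 alleles (5 tumors of 4 mice, since mouse 3717 gave 2). The others were HCC (5 tumors of 5 mice) and intrahepatic cholangiocarcinoma (ICC), a tumor of bile duct type (5 tumors of 5 mice), from p53LKO mice, in which Trp53 was deleted in the liver, and 4 of those mice gave both an HCC and an ICC. The allele that drives the deletion is not named in the sources used here, and the mice were of C57/BL6J background. The study describes the arrayed HCC as those of male mice, and the age of each mouse is not given in the sources used here. The study reports delayed tumor formation in p53f/f mice. A difference in age between the HCC groups therefore cannot be told apart from one of genotype. The RNA came from whole tumor tissue, so that tumor cells and all other cells of the tumor were read together.

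Chaperones fall under separate stress programs. The heat shock response acts on the cytosol, where the transcription factor HSF1 binds heat shock elements, repeats of GAA and TTC, and raises Hsp70, Hsp90, Hsp110 and their J protein partners. The unfolded protein response acts on the ER through the sensors Ire1 (Ern1), Perk (Eif2ak3) and Atf6, and the factors Xbp1 and Atf6 raise ER chaperones through the ER stress element, in which CCAAT and CCACG stand 9 bases apart. Hepatocytes secrete most plasma proteins and are rich in ER, which makes this machinery prominent in the liver.

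The promoters of several members show these elements, and they are printed here because the results below set genes with the same element side by side. RefSeq (GRCm38.p6) gave a promoter window of 300 bases, 250 before and 50 after the transcription start, for 72 of the 87 genes. The ER stress element, searched on both strands as CCAAT, any 9 bases and CCACG, lay in a window of 7 of these 72 genes (9.72%), against 37 of 27025 genes with a window (0.137%), and 6 of the 7 were among the 16 ER chaperone genes with a window. Capitals mark the element, and the sequence is that of the strand of the gene, 5′ to 3′.
Hspa5, chr2:34771995-34772073, plus strand: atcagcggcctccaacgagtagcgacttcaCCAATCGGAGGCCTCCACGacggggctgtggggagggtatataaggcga
Creld2, chr15:88819490-88819568, plus strand: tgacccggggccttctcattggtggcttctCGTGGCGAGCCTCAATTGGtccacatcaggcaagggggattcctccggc
Dnajc3, chr14:118937797-118937875, plus strand: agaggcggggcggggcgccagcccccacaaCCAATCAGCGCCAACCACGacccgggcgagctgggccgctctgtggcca
Hsp90b1, chr10:86705503-86705686, minus strand: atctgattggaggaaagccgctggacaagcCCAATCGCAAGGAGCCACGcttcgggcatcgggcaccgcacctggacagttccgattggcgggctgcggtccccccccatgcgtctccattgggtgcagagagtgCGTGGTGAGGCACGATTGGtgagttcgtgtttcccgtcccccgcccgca
Calr, chr8:84847045-84847123, minus strand: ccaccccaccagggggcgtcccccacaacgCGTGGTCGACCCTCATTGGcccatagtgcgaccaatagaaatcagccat
Pdia6, chr12:17266461-17266539, plus strand: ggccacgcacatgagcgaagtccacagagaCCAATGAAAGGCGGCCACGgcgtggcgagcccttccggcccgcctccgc
Canx, chr11:50325795-50325823, minus strand: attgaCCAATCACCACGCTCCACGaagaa
Hsp90b1 held the element 2 times, once on each strand, and in Creld2 and Calr it lay on the opposite strand, where it reads CGTGG, 9 bases and ATTGG. The core CCACG alone, which the element contains, was found in 59.7% of the member genes and in 35.5% of all genes.

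The heat shock element, searched on both strands as GAANNTTC, was in a window of 18.1% of the member genes with a window and of 9.04% of all genes. Its form of 3 units, in which GAA and TTC alternate with 2 bases between them and which contains GAANNTTC, was in 4 member genes (5.56%, against 0.662% of all genes), namely Hsph1, Hspd1, Hspe1 and Dnajb6. Capitals again mark the element, which in Hsph1 lies just after the transcription start.
Hsph1, chr5:149636280-149636308, minus strand: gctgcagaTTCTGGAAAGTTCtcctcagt
Hspd1, chr1:55088053-55088082, minus strand: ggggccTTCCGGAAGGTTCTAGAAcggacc
The stretch shown for Hspd1 is also that of Hspe1, its neighbor, which is read from the other strand. The capitals in that stretch join overlapping matches of the form of 3 units. The element TTGCATCA, bound by C/EBP and ATF4, was in the window of 1 member, Herpud1 (1.39%, against 1.03% of all genes). A match is a matter of letters and says nothing of whether a factor bound there.

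Levels are on a log2 scale, with the 75th percentile of each array's probes set to 0, and a level of 1 gene is not compared with that of another, since probes differ in brightness. For a gene to be tested, its probe had to exceed background clearly on 3 or more arrays in either group of the comparison. In what follows a gene is said to have risen or fallen where limma gave an adjusted p under 0.05, and to have passed both thresholds where the change was also over 2-fold. Of the members, 68 were well above background on all 15 arrays and 76 were tested in both comparisons. In neither comparison were 9 tested, of which Dnajb7, Dnajc27, Dnajc5g, Dnajc6 and Hspb3 were above background on 0 arrays, and Dnajb13, Dnajb3, Dnajc5b and Hspa12a on too few.

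The arrays differed in their signal. Probes well above background made up 55.1% to 70.1% of an array for p53f/f HCC, 37.0% to 62.1% for p53LKO HCC and 42.5% to 47.0% for ICC. All p53f/f HCC lay in the upper row of their slide and all ICC in the lower row, while the p53LKO HCC of mice 3976 and 5283, with 46.4% and 37.0%, lay in the lower row and the other 3 in the upper one. The only Trp53 probe stood at -1.27 to -0.68 in p53f/f HCC, -3.86 to -2.75 in p53LKO HCC and -4.19 to -2.31 in ICC, but the array places it on chromosome 17 of mm9, where RefSeq has a Trp53 pseudogene, and the gene itself lies on chromosome 11. Hepatocyte markers summed to 10.72 to 11.62 in p53f/f HCC, 10.37 to 10.87 in p53LKO HCC and 7.19 to 9.91 in ICC (log2 of the summed level), so the ICC still held hepatocyte signal. Biliary markers summed to 2.09 to 4.81, 2.33 to 3.36 and 6.07 to 7.17, and Epcam, a surface protein of bile duct cells, was well above background in 1, 0 and 5 tumors of the 3 groups in that order.

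In HCC without p53, 5 of 11 cytosolic Hsp70, Hsp110 and Hsp90 genes rose relative to p53f/f HCC, and 2 of 18 ER chaperones did, while the difference between these roles was not tested. Of 78 members tested, 18 rose and 4 fell. Rises made up 23.1% of the members and 13.8% of all 17845 genes tested, and falls 5.13% of the members and 15.7% of all genes. Both thresholds were passed upwards by 3 members, Hsph1, Dnajb1 and Hsp90aa1 (5.19% of all genes did so), and downwards by 4, Dnajb8, Pdia2, Ern1 and Dnajc5 (10.8% of all genes). The groups did not overlap for 13 members (16.7%), close to the 19.5% of all genes. The median log2 fold change of the members was 0.24 and that of all genes 0.06, but the members' median turned to -0.01 when the percentile was taken over probes above background on all arrays.

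The 2 largest rises that passed were those of partners of Hsp70. Dnajb1, the J protein that hands unfolded clients to Hsp70 in the cytosol, was at 2.68, 2.86, 3.40, 2.78 and 2.69 in the p53f/f HCC and at 3.99, 4.29, 3.57, 4.90 and 4.42 in the p53LKO HCC. Every p53LKO tumor lay above every p53f/f tumor, and the highest p53f/f tumor, that of mouse 3716, stood just below the lowest p53LKO one. The log2 fold change was 1.35 with a standard error of 0.25 (2.55-fold; adjusted p = 0.00249 from limma). Hsph1, the Hsp110 that exchanges the nucleotide of Hsp70 and whose element is printed above, had levels of 0.56, 1.35, 1.88, 1.31 and 0.76 in p53f/f HCC and of 2.91, 1.33, 3.01, 3.84 and 2.63 in p53LKO HCC. The p53LKO tumor of mouse 5283 lay within the range of the p53f/f tumors, and the other 4 were above all of them. Hsph1 rose by 1.57 with a standard error of 0.42 (adjusted p = 0.0157 by limma), and its dimmer probe by 1.46.

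Both cytosolic Hsp90 genes rose, with overlap between the groups. For Hsp90aa1, the stress-inducible form, the p53f/f HCC gave 3.40, 4.58, 4.64, 3.82 and 3.82 and the p53LKO HCC 4.85, 4.33, 5.24, 6.05 and 5.05. The only p53LKO tumor within the range of the p53f/f tumors was again that of mouse 5283. limma gave a rise of 1.05 with a standard error of 0.34 (adjusted p = 0.035). Hsp90ab1, the constitutive form, rose by 0.79 with a standard error of 0.27 (adjusted p = 0.042 by limma). Neither call was firm, since Hsp90aa1 stayed under the threshold of adjusted p in 11 and Hsp90ab1 in 8 of 26 alternative settings. The adjusted p of Hsp90aa1 was 0.076 when the tumors of mouse 3717 were averaged, and that of Hsp90ab1 was 0.0844.

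Of the 11 cytosolic Hsp70, Hsp110 and Hsp90 genes tested, 5 rose and the remaining 6 did not pass, with a median log2 fold change of 0.73. The rises numbered 3 with quantile normalization and with the percentile or the median over probes above background on all arrays, and 8 with the spike-in probes. The median stayed positive under each of the 6 scalings of the arrays that were tried, between 0.31 and 1.47, and under normexp background correction 2 of the genes fell. Beside the genes above, Hspa14, an Hsp70 that works at the ribosome, rose by 0.82 (adjusted p = 0.00471 from limma) and Hspa4l, a relative of Hsp110, by 0.82 (adjusted p = 0.0122 from limma), each without overlap between groups. Hspa8, the constitutive Hsp70, had a mean level of 8.01 ± 0.19 (SD, n = 5) without and 8.03 ± 0.31 (SD, n = 5) with the deletion of Trp53. The inducible Hspa1a was dim, with levels of -4.20 to -3.02 in p53f/f HCC and -4.33 to -1.38 in p53LKO HCC, and its change of 0.73 did not pass (adjusted p = 0.326 from limma). The brightest Hspa4 probe gave 0.24, while the other probes rose by 1.17 and 0.94 (adjusted p = 0.0161 and 0.0401 from limma).

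**Figure D1:**
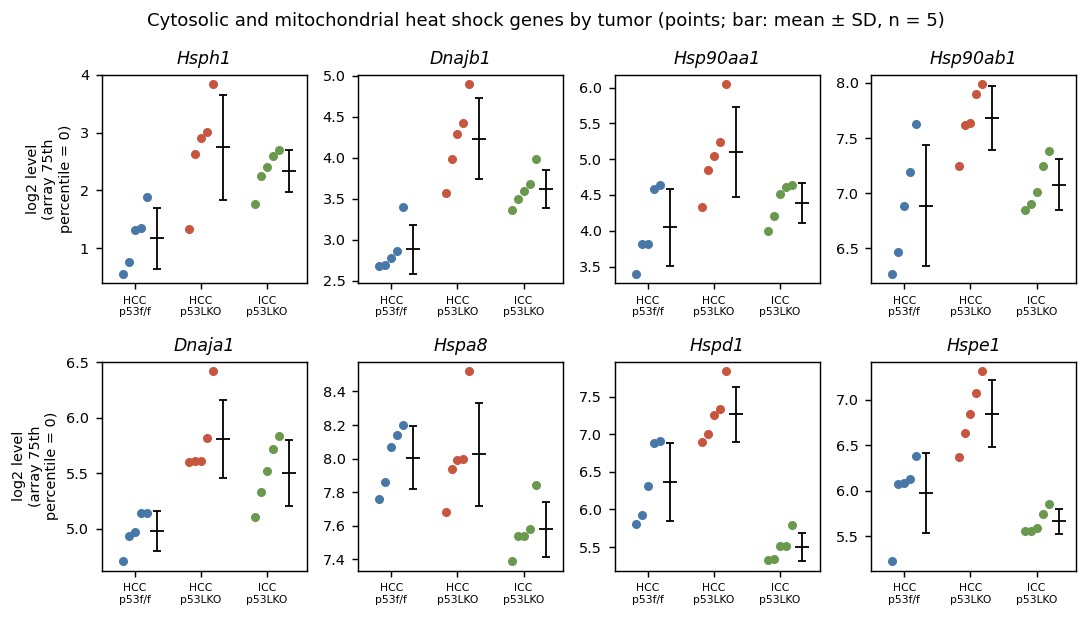
Levels of 8 cytosolic and mitochondrial heat shock genes in each tumor, on the log2 scale where 0 is the 75th percentile of the array, with p53f/f HCC, p53LKO HCC and ICC side by side. Points are tumors, ordered by value within a group, and bars are mean ± SD (n = 5). The p53LKO HCC lie above all p53f/f HCC for Dnajb1 and Dnaja1, 1 p53LKO HCC is low for Hsph1, Hspa8 is alike in both HCC groups, and the ICC are lowest for Hspd1.

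Many co-chaperones that serve these genes rose as well. From a list of 27 genes outside the members, which holds HSF1 and HSF2, Hsp90 and Hsp70 co-chaperones and the subunits of the chaperonin CCT, 13 rose in p53LKO HCC (48.1%, against 13.8% of all genes) and 14 did not pass. Those that rose were Hsf1 (0.93; adjusted p = 0.00786 from limma), the linker of Hsp70 and Hsp90 Stip1 (1.11; adjusted p = 0.00132), the Hsp90 co-chaperones Fkbp4 (1.26), Chordc1 (0.84) and Cdc37 (0.45), the Hsp70 co-chaperones St13 (1.13), Bag1 (0.64) and Bag4 (1.06), the CCT subunits Tcp1 (0.79), Cct5 (0.85), Cct6a (0.79) and Cct8 (0.57), and the collagen chaperone Serpinh1 (1.27). The median of the 27 was 0.57, and 7 to 27 of them rose under the 6 scalings. Within the upper row of the slides alone, 11 of the 27 rose, with a median of 0.65.

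Among the other J proteins, 5 of 21 rose (23.8%, against 13.8% of all genes) and 2 fell (9.52%, against 15.7%), with a median of 0.46. Rises and falls were 2 and 2 with the percentile or the median over probes above background on all arrays, and 17 and 1 with the spike-in probes. Dnaja1, a partner of Hsc70 and Hsp90, was at 4.71, 5.14, 5.14, 4.94 and 4.97 in p53f/f HCC and at 5.61, 5.60, 5.82, 6.42 and 5.61 in p53LKO HCC. The groups were apart, and the rise was 0.83 (standard error 0.20; adjusted p = 0.00823 from limma). Its probe is placed on chromosome 1 of mm9, away from the gene on chromosome 4, and the dim probe on chromosome 4 gave 0.13 (adjusted p = 0.681 from limma). Dnajb2, Dnajb5 and Dnajc21 rose by 0.73, 0.68 and 0.61.

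The members that fell were 2 J proteins, a disulfide isomerase and a sensor, and no role as a whole. Dnajb8, a J protein best known from testis, was at -2.40, -2.07, -2.08, -1.78 and -2.05 in p53f/f HCC and at -5.33, -4.30, -6.29, -5.23 and -7.02 in p53LKO HCC. Its probe was well above background in 5 of 5 p53f/f tumors and 0 of 5 p53LKO tumors, which makes it at least 3.88-fold lower. It was tested only for its signal in p53f/f HCC, and its adjusted p of 0.000198 from limma rests on p53LKO values near background. Dnajc5, the cysteine string protein of secretory vesicles, fell by 1.00 with its brightest probe (adjusted p = 0.0012 from limma), from 8.07 to 8.41 down to 6.94 to 7.59. The other 2 Dnajc5 probes rose, by 0.92 and 0.78 (adjusted p = 0.00784 and 0.0106 from limma), so the probes of this gene disagree in direction, and the mean over its probes gave 0.23 (adjusted p = 0.351). Pdia2, an isomerase best known from the pancreas, also fell (adjusted p = 0.00352 from limma). It was above background in 5 of 5 p53f/f and only 2 of 5 p53LKO tumors, so that its size is not exact. The call was lost with quantile normalization (-0.55; adjusted p = 0.116 from limma) and with the mean over its probes (-0.48; adjusted p = 0.367 from limma). It was also lost with the spike-in probes (-0.60; adjusted p = 0.115 from limma). Of the pancreatic acinar markers, Cela1, Cel and Amy2a5 were well above background on all 10 HCC arrays, while Prss2 was so on 0 of the 15 arrays, Cpb1 on 1 and Cpa1 on 3. Pnlip was so in 3 of 5 p53f/f HCC and 0 of 5 p53LKO HCC (adjusted p = 0.00566 from limma), and the summed level of the list was 2.37 to 4.26 in p53f/f HCC and 2.64 to 3.39 in p53LKO HCC. The part of such cells in the change of Pdia2 was not tested.

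The 3 sensors of the unfolded protein response did not move together. Ern1 was at 1.34, 1.28, 2.56, 1.77 and 1.78 in p53f/f HCC and at 1.16, 0.58, 0.30, 0.78 and 0.66 in p53LKO HCC. No tumor of 1 group lay within the other, and Ern1 fell by 1.05 (standard error 0.26; adjusted p = 0.0106 from limma). Eif2ak3 and Atf6 rose by 0.72 and 0.71 (standard error 0.22 each; adjusted p = 0.0279 and 0.0272 from limma), calls that held in 13 and 14 of 26 alternative settings. The transcription factors downstream gave -0.32 for Xbp1, 0.35 for Atf4 and -0.18 for Ddit3, also known as Chop, and passed no threshold.

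Hspa5, the ER Hsp70 known as BiP, was at 7.87, 6.46, 6.55, 8.34 and 7.34 in p53f/f HCC and at 7.90, 6.85, 7.38, 8.02 and 7.64 in p53LKO HCC. The p53f/f tumor of mouse 3681 and the first tumor of mouse 3717 were high and those of mice 3715 and 3716 low, and all p53LKO HCC lay within the range of the p53f/f HCC. The change of 0.25 had a standard error of 0.38 (adjusted p = 0.647 from limma). The other members with an ER stress element gave 0.35 (Creld2), 0.26 (Dnajc3), 0.24 (Calr), -0.08 (Canx), -0.24 (Hsp90b1) and -0.55 (Pdia6), and none of these passed. Of 18 ER chaperones and ER J proteins tested, 2 rose, Dnajc18 by 0.84 (adjusted p = 0.00722 from limma) and Dnajc1 by 0.62, and 0 fell by limma, as at an unadjusted p under 0.05. Their median was 0.18, which turned to -0.06 and -0.01 under 2 scalings. The brightest Dnajb11 probe gave 0.45, while a dim probe fell by 2.34 (adjusted p = 0.0431 from limma). Of 5 disulfide isomerases, Pdia5 rose by 0.61 (adjusted p = 0.0405 from limma), a call that held in 8 of 26 alternative settings and was lost when the tumors of mouse 3717 were averaged (adjusted p = 0.0821). Pdia3, Pdia4 and Pdia6 gave 0.37, 0.01 and -0.55.

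In the mitochondrion, the chaperonin pair rose, although 0 mitochondrial members rose by limma under scaling to probes above background on all arrays. Hspd1 (Hsp60) was at 6.31, 6.91, 6.88, 5.92 and 5.81 in p53f/f HCC and at 7.34, 7.0, 7.26, 7.84 and 6.90 in p53LKO HCC, a rise of 0.90 (standard error 0.27; adjusted p = 0.026 from limma). Hspe1 (Hsp10), its lid, rose by 0.86 with a standard error of 0.25 (adjusted p = 0.0227 by limma), and its other probes by 0.85 and 0.91. The 2 tumors of mouse 3717 held the lowest Hspd1 levels, and when they were averaged its adjusted p was 0.0642. The probe of Hspd1 and the brightest probe of Hspe1 are placed on chromosomes 12 and 5 of mm9, not on chromosome 1 where the genes lie, and RefSeq names 23 pseudogenes of Hspd1 and 7 of Hspe1, so signal of the genes and of their copies cannot be told apart. The brightest probes of Hspa8, Hspb1, Dnaja1, Dnajb6 and Dnajc27 likewise lay off the chromosome of their gene, against 78 members with a probe on it. Of the 10 mitochondrial genes, the other 8 did not pass, among them Hspa9, the mitochondrial Hsp70 (0.45), and Dnaja3 (0.54). From a list of 10 further mitochondrial chaperones and proteases, 4 rose (40%, against 13.8% of all genes). They were the mitochondrial Hsp90 Trap1 (1.11), Lonp1 (0.97), Timm44 (0.90) and Afg3l2 (0.88). The rises ranged from 0 with quantile normalization to 8 with the spike-in probes, where 11.4% and 51.5% of all genes rose.

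Among the small heat shock proteins, Hspb1 (Hsp27 in humans) was at 1.92, 5.61, 6.14, 4.08 and 3.52 in p53f/f HCC and at 6.40, 6.27, 6.28, 6.50 and 4.24 in p53LKO HCC. The p53LKO tumor of mouse 3975 stood low and the p53f/f tumors of mice 3715 and 3716 high, and the change of 1.68 (standard error 0.75) did not pass (adjusted p = 0.108 from limma). Of the 7 tested, Hspb11 alone rose (14.3%, against 13.8% of all genes). It was counted in this role by its name, and rose by 0.53 (adjusted p = 0.0282 from limma). A list of 29 further genes of the unfolded protein response and ER-associated degradation had 3 that rose (10.3%, against 13.8% of all genes, and 0 to 15 under the other 5 scalings, with a median below 0 under 2 of them), Mbtps1, the protease that activates Atf6 (0.71; adjusted p = 0.0133 from limma), Sil1 (0.71) and Derl1 (0.68), and 1 that fell (3.45%, against 15.7% of all genes), Ero1lb (-1.13; adjusted p = 0.0218 from limma).

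These counts depended on which tumors were compared. With the upper row alone (5 p53f/f and 3 p53LKO tumors), an alternative chosen after seeing the data as regards counts at an adjusted p alone, 8 of 78 members rose (10.3%, against 8.85% of all genes) and 4 fell. Hspd1 and Hspe1 then gave 0.97 and 0.86, no smaller than with all arrays, but did not pass (adjusted p = 0.0607 and 0.0672 from limma). Without the p53f/f tumor of mouse 3716, 14 rose (17.9%, against 13.3% of all genes) and 4 fell (5.13%, against 15.6%). Lymphocyte markers summed to 9.26 in that tumor, where the other p53f/f tumors began at 2.51. Macrophage markers summed to 5.29 to 6.12 in p53f/f HCC and 6.14 to 7.01 in p53LKO HCC, and markers of stellate cells and fibroblasts to 4.66 to 6.55 and 5.92 to 7.58. Their part in the rises was not tested, and in whole tissue fewer cells of a type cannot be told apart from less RNA per cell.

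**Figure D2:**
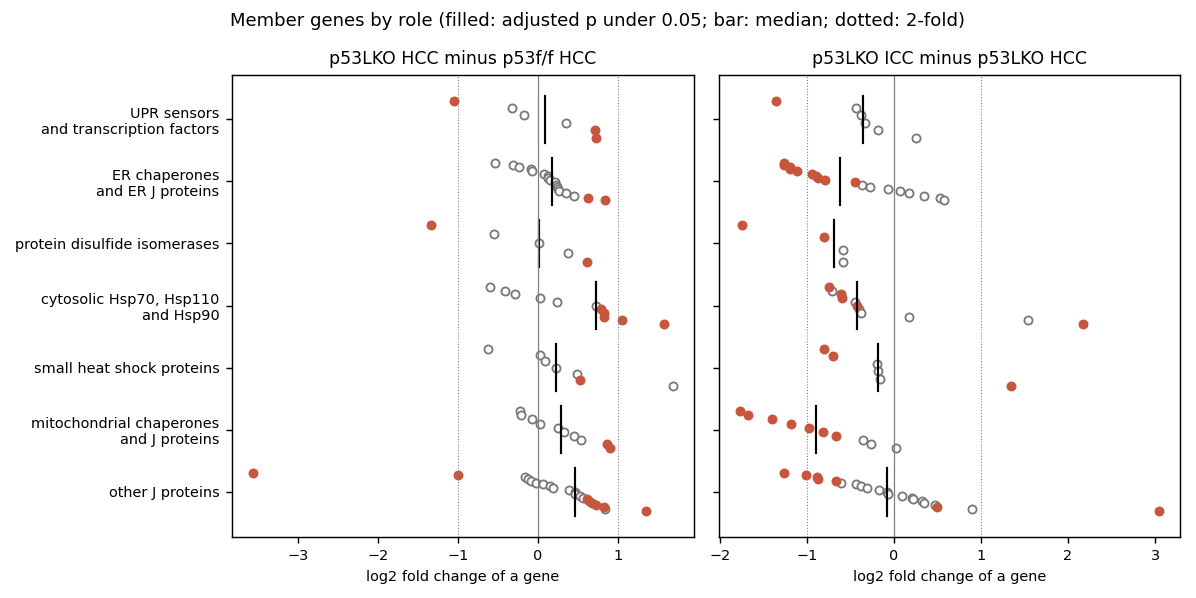
Log2 fold change of each tested member by role, p53LKO HCC against p53f/f HCC on the left and ICC against HCC of p53LKO mice on the right. Filled points have an adjusted p under 0.05 from limma, the bar is the median of the role and dotted lines mark 2-fold. On the left the cytosolic chaperones have the highest median, 0.73, and on the right the mitochondrial and ER roles lie mostly below 0, with medians of -0.90 and -0.62 that stayed below 0 under 6 scalings. The 2 comparisons share the p53LKO HCC arrays.

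In ICC of p53LKO mice, 10 of 18 ER chaperones and 7 of 10 mitochondrial chaperones fell relative to HCC of p53LKO mice, although up to 4 of the ER chaperones rose under 3 of the other scalings. Of 76 members tested, 31 fell (40.8%, against 29.1% of all 16960 genes tested) and 4 rose (5.26%, against 18.5% of all genes). Both thresholds were passed downwards by 13 (15.2% of all genes did so) and upwards by 3, Dnajb8, Hspa2 and Hspb2 (13.2% of all genes). The groups did not overlap for 27 members (35.5%, and 30.8% of all genes). The median log2 fold change was -0.41 for the members and -0.17 for all genes. This comparison uses the same 5 p53LKO HCC arrays as the one above, so a gene high on those arrays moves in both.

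The mitochondrial chaperonin Hspd1 was at 5.79, 5.33, 5.52, 5.52 and 5.34 in ICC, and every ICC lay below every HCC of either genotype. Against the p53LKO HCC it fell by 1.77 (standard error 0.20; 3.4-fold; adjusted p = 0.000127 from limma). Hspe1 was at 5.86, 5.75, 5.59, 5.56 and 5.56 in ICC, against 7.07, 6.63, 6.84, 7.31 and 6.37 in p53LKO HCC. It fell by 1.18 with a standard error of 0.19 (adjusted p = 0.0009 by limma), and its other 2 probes by 1.18 and 1.24, with the same limit from gene copies as above. Dnaja3, the J protein partner of mitochondrial Hsp70, was at 3.09, 2.70, 3.1, 3.04 and 3.36 in ICC and at 4.57, 4.81, 4.20, 4.01 and 4.69 in p53LKO HCC. These groups were far apart, and Dnaja3 fell by 1.40 (standard error 0.20; adjusted p = 0.000442 from limma).

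In all, 7 of 10 mitochondrial members fell, with a median of -0.90, and 0 rose by limma, as at an unadjusted p under 0.05. Between 5 and 7 fell and 0 rose under each of the 6 scalings. Hspa9 fell by 0.67 (adjusted p = 0.0169 from limma, 0.0674 with the mouse as a replicate block and 0.205 with the row of the slide as a block), Dnajc19, part of the protein import motor, by 0.82 and Dnajc30 by 0.98. Dnajc28, which is 1 of the 7, was well above background in 4 of 5 p53LKO HCC and 0 of 5 ICC, so it was at least 1.8-fold lower. It was tested only for its signal in p53LKO HCC, and its adjusted p of 0.00252 from limma rests on ICC values near background. Dnajc4, Dnajc11 and Dnajc15 gave 0.02, -0.36 and -0.26 with their brightest probes, while the other Dnajc11 probe fell by 1.04 (adjusted p = 0.00508 from limma). Of the 10 further mitochondrial genes, 8 fell (80%, against 29.1% of all genes) and 1 rose (10%, against 18.5%). Among those that fell were Trap1 by 2.02, Grpel1, the nucleotide exchange factor of Hspa9, by 1.40, Afg3l2 by 1.39 and Lonp1 by 1.28. The protease Htra2 rose by 1.86 (adjusted p = 0.000629 from limma). With the lower row alone (2 p53LKO HCC and 5 ICC), 4 of the 9 mitochondrial members tested fell, with a median of -0.71.

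ER chaperones divided into those that fell and those that did not. Of 18, 10 fell and 8 did not pass, with a median of -0.62, while under quantile normalization and under the percentile over probes above background on all arrays 6 fell and 4 rose. Creld2, an ER factor induced by ER stress, was at 4.53, 5.03, 5.01, 4.44 and 4.64 in ICC and at 6.27, 5.18, 5.95, 6.55 and 5.64 in p53LKO HCC. The p53LKO HCC of mouse 5283 came nearest to the ICC, without overlap, and Creld2 fell by 1.19, with a standard error of 0.26 (adjusted p = 0.00439 by limma). With the row of the slide as a block, the call was lost for Creld2 (-0.99; adjusted p = 0.059), Herpud1 (-1.05; adjusted p = 0.0726) and Dnajc3 (-0.89; adjusted p = 0.0586), and Creld2 also missed the threshold with the lower row alone (adjusted p = 0.0726) and with quantile normalization (-0.67; adjusted p = 0.0641, all from limma). Herpud1, which assembles the ER degradation complex, was at 3.95, 3.97, 4.03, 4.47 and 4.48 in ICC and at 4.87, 5.58, 4.68, 5.91 and 6.15 in p53LKO HCC, and it fell by 1.26 (standard error 0.29; adjusted p = 0.00598 from limma). Sdf2l1, a component of ER chaperone complexes, went from 2.23 to 3.34 in HCC to 0.98 to 1.75 in ICC, a fall of 1.19 (adjusted p = 0.00318 from limma).

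Among the J proteins of the ER, Dnajc3, of the lumen, was at 2.67, 2.65, 2.66, 2.55 and 2.03 in ICC and at 3.36, 3.43, 3.36, 4.43 and 4.26 in p53LKO HCC. All ICC lay below all p53LKO HCC, and it fell by 1.26 (standard error 0.26; adjusted p = 0.00314 from limma). Dnajb11, also of the lumen, fell by 0.79 (adjusted p = 0.00424, 0.0633 with the mouse as a replicate block and 0.0569 with the lower row alone), Dnajc25 by 1.11 (adjusted p = 0.00351) and Dnajc1 by 0.94 (adjusted p = 0.00206, all from limma). Hspa5 itself was at 6.84, 7.01, 6.82, 6.45 and 6.32 in ICC and fell by 0.87 (standard error 0.24; adjusted p = 0.0141 from limma). Its groups overlapped through the p53LKO HCC of mouse 5283, at 6.85, and within the lower row alone the change was -0.69 and did not pass (adjusted p = 0.171 from limma). Hspa13, an Hsp70 of microsomes, fell by 0.89 with its brightest probe and by 1.75 with the other.

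Genes with the same promoter element were not all called alike, and the difference between them was not tested. Hsp90b1, the ER Hsp90 known as Grp94, was at 6.56, 6.64, 6.75, 6.33 and 6.51 in ICC and at 6.85, 6.14, 6.44, 6.68 and 6.36 in p53LKO HCC. The ICC lay within the range of the HCC, and limma gave 0.07 with a standard error of 0.17 (adjusted p = 0.771), although its window held the element 2 times. Calr and Canx, the lectin chaperones of glycoproteins, gave -0.28 and 0.34 (adjusted p = 0.261 and 0.136 from limma), and Dnajb9, a J protein that acts on Ire1, gave 0.53 (adjusted p = 0.221 from limma). Of the 7 genes with an ER stress element in their window, Creld2, Dnajc3 and Hspa5 fell, while Hsp90b1, Calr, Canx and Pdia6 did not pass. With the row of the slide as a block, Creld2, Dnajc3 and Hspa5 did not pass either (adjusted p = 0.059, 0.0586 and 0.134 from limma). A second Pdia6 probe fell by 0.80 (adjusted p = 0.0392 from limma).

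**Figure D3:**
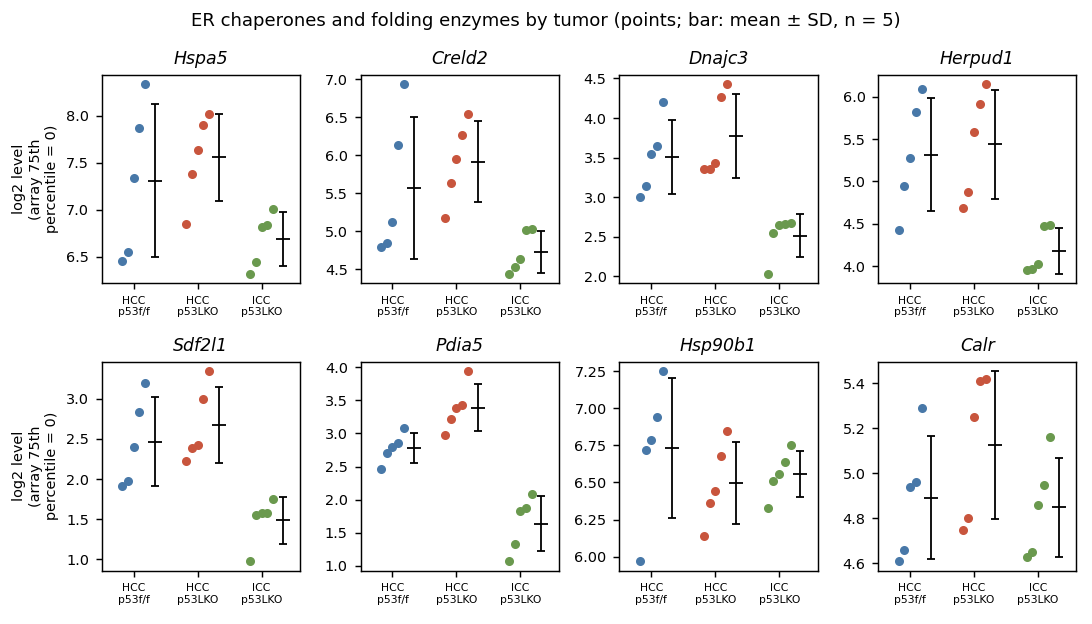
Levels of 8 ER chaperones and folding enzymes in each tumor, on the log2 scale where 0 is the 75th percentile of the array, in the same 3 groups. Points are tumors, ordered by value within a group, and bars are mean ± SD (n = 5). The ICC lie below all p53LKO HCC for Creld2, Dnajc3, Herpud1, Sdf2l1 and Pdia5, overlap with them for Hspa5 and Calr, and lie within their range for Hsp90b1.

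Of the 5 disulfide isomerases, 4 were tested in this comparison, and Pdia2 was not. Pdia5 was at 1.88, 1.07, 1.82, 2.08 and 1.33 in ICC and at 2.97, 3.94, 3.39, 3.43 and 3.22 in p53LKO HCC. It fell by 1.75 (standard error 0.24; 3.37-fold; adjusted p = 0.000381 from limma), and the p53f/f HCC, at 2.46 to 3.09, also lay above all ICC. Pdia3 fell by 0.80 (adjusted p = 0.0158 from limma, and 0.0678 with the mouse as a replicate block), while Pdia4 and Pdia6 gave -0.58 each (adjusted p = 0.0563 and 0.0815 from limma), and the second Pdia6 probe fell by 0.80 (adjusted p = 0.0392 from limma). Among the sensors, Atf6 was at -1.42, -1.59, -1.10, -1.39 and -0.74 in ICC and at 0.44, -0.37, -0.28, 0.41 and 0.33 in p53LKO HCC, a fall of 1.36 without overlap (standard error 0.23; adjusted p = 0.00119 from limma). The other 5 genes of this role did not pass, with 0.25 for Eif2ak3, -0.18 for Xbp1, -0.33 for Ern1, -0.38 for Ddit3 and -0.44 for Atf4. A second Atf4 probe fell by 0.67 (adjusted p = 0.0212 from limma).

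Of the 29 further genes of the ER pathway, 15 fell (51.7%, against 29.1% of all genes), 2 rose and 12 did not pass, with a median of -0.64. Between 9 and 16 fell under the 6 scalings. The largest falls were those of Fkbp11, a prolyl isomerase of secretory cells (-2.94; adjusted p = 0.000445 from limma), Trib3, a target of Atf4 and Chop (-2.15; adjusted p = 0.000105), Sil1, the exchange factor of BiP (-1.65), and Derl1 (-1.54; adjusted p = 8.23e-05). P4hb, the disulfide isomerase that is named outside the Pdia series, fell by 1.27, Derl2 by 1.17 and Fkbp2 by 1.14. Ppp1r15a, which reverses the arrest of translation by Perk, rose by 1.43 (adjusted p = 0.00141 from limma) and Ero1lb, an oxidase of disulfide isomerases, by 0.96 (adjusted p = 0.038).

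Of 11 cytosolic chaperones, 4 fell (36.4%, against 29.1% of all genes) and 1 rose, with a median of -0.42, and under the percentile over probes above background on all arrays the falls were lost and 2 rose. Those that fell were Hspa4 (-0.61), Hsp90ab1 (-0.60; adjusted p = 0.0228 from limma, 0.141 with the mouse as a replicate block and 0.164 with the row as a block) and Hspa14 (-0.42), and, with no size that can be given, Hspa1l, which was tested only for its signal in p53LKO HCC (well above background in 3 of 5, and in 0 of 5 ICC). Hsph1 gave -0.40, Dnajb1 -0.61 (adjusted p = 0.0583 from limma), Hsp90aa1 -0.71 (adjusted p = 0.0658), Dnaja1 -0.31 and Hspa8 -0.45 (adjusted p = 0.0623), while a dimmer Hspa8 probe fell by 0.62 (adjusted p = 0.0336). Their levels in ICC, 2.34 ± 0.37 for Hsph1, 3.62 ± 0.23 for Dnajb1 and 4.39 ± 0.28 for Hsp90aa1 (SD, n = 5), lay between the means of the 2 HCC groups. Of the 27 co-chaperones, 9 fell (33.3%, against 29.1% of all genes), among them St13 by 1.19 and Bag4 by 1.12, and 2 rose, Cryab by 2.64 and Serpinh1 by 1.44, while 2 fell and 5 rose with the percentile over probes above background on all arrays and 5 and 5 with quantile normalization.

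The members that passed both thresholds upwards in ICC are best known from testis and muscle. None of them did so when probes had to be above background on every array, so their sizes rest in part on dim p53LKO HCC values. Hspa2, an Hsp70 abundant in testis, was at -0.29, -0.44, 0.31, -0.70 and -0.65 in ICC and at -2.45, -2.09, -1.80, -3.29 and -2.97 in p53LKO HCC. All ICC stood above all p53LKO HCC, and Hspa2 rose 4.49-fold, by 2.17 with a standard error of 0.31 (adjusted p = 0.000418 by limma), though 1 p53f/f HCC reached -0.69. Hspb2, a small heat shock protein of muscle, was at -0.51, -0.14, 0.17, -0.39 and -0.24 in ICC and at -2.35 to -0.71 in p53LKO HCC. It rose by 1.34 with a standard error of 0.32 (adjusted p = 0.00729 by limma), and its neighbor Cryab, read from the opposite strand, is the small heat shock protein with the rise of 2.64 named above. Dnajb8 was at -1.26, -1.56, -3.57, -1.60 and -4.91 in ICC, above background in 3 of 5. It was so in 0 of 5 p53LKO HCC, and was thus at least 2.74-fold higher in ICC. It was tested only for its signal in ICC, and its adjusted p of 0.00735 from limma rests on p53LKO HCC values near background. It no longer passed with the mouse as a replicate block (adjusted p = 0.0845 from limma) or with the row as a block (adjusted p = 0.103). Dnajc7 rose by 0.50 (adjusted p = 0.0247 from limma), and Hspa1a, at -2.22 to 0.23 in ICC, gave 1.54 (adjusted p = 0.0673 from limma).

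Among the remaining J proteins 5 of 21 fell (23.8%, against 29.1% of all genes) and 2 rose, while 3 fell and 7 rose with the percentile and 4 and 4 with the median over probes above background on all arrays. Dnajc22 fell by 1.26 (adjusted p = 0.000651 from limma), Dnaja2 by 1.01 (adjusted p = 0.00599), and Dnajc16, Dnajc21 and Dnajb2 by 0.88, 0.87 and 0.67. The brightest Dnajc5 probe gave 0.32 and did not pass, while its others gave -0.63 and -0.60 (adjusted p = 0.0497 and 0.083 from limma), so its probes again disagree in direction. Among the small heat shock proteins, Hspb8, a partner of Bag3 in selective autophagy, fell by 0.80 (adjusted p = 0.043 from limma, and 0.0912 with the mouse as a replicate block), a call that held in 9 of 25 alternative settings, and Hspb9 fell by 0.70. Hspb1 gave -0.19 (adjusted p = 0.755 from limma).

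**Figure D4:**
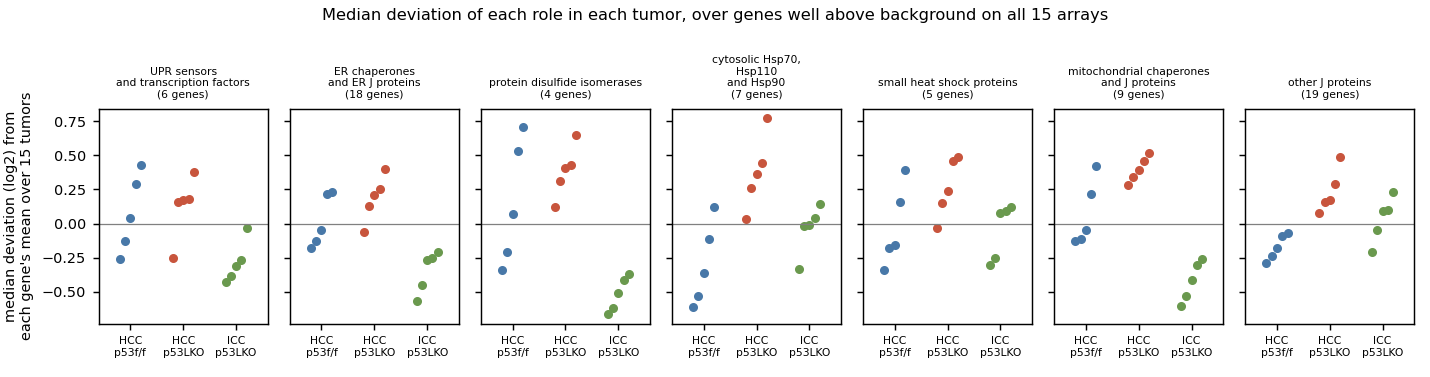
Median deviation of each role in each tumor, in log2 units from each gene's own mean over the 15 tumors, over genes well above background on all arrays. Points are tumors, ordered by value within a group. The ICC lie below all HCC of both genotypes for the mitochondrial role (-0.60 to -0.26, against 0.28 to 0.52 and -0.13 to 0.42), the p53LKO HCC and ICC do not overlap for the ER role (-0.06 to 0.40 and -0.57 to -0.21), and the 2 HCC groups do not overlap for the other J proteins (-0.29 to -0.07 and 0.08 to 0.49).

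Cell type markers differed in this comparison as well. Of 6 hepatocyte markers 4 fell, Alb by 1.91, Apoa1 by 2.76, Ttr by 1.73 and Hnf4a by 2.03, while Cyp2e1 and Cps1 did not pass. Of 6 biliary markers 4 rose, Spp1 by 4.73, Krt19 by 4.67, Epcam, which was well above background in 0 of 5 p53LKO HCC and 5 of 5 ICC, and Krt7, which was so in 1 and 4. Of 5 markers of stellate cells and fibroblasts 4 rose (Col1a2 by 2.74, Col1a1 by 2.63, Dcn by 2.30, Pdgfrb by 1.25), with summed levels of 5.92 to 7.58 in p53LKO HCC and 8.54 to 9.42 in ICC. Macrophage sums were 6.14 to 7.01 and 6.24 to 6.80, lymphocyte sums 2.36 to 2.71 and 2.15 to 2.99, plasma cell sums 2.71 to 3.51 and 2.26 to 2.98, and endothelial sums 4.64 to 4.92 and 3.43 to 4.40. The part of this change of cell types in the lower ER and mitochondrial chaperones was not tested.

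The size of these counts, and the balance of rises and falls, depended on how the arrays were brought to 1 scale. The shift of all genes was 0.06 in the HCC comparison with the 75th percentile of all probes, and it was -0.18 when the percentile was taken over probes above background on all arrays and 0.80 with the 7 spike-in probes. Rises and falls among the 78 members tested numbered 18 and 4 with the first scaling and 10 and 3 with quantile normalization. With either the percentile or the median of the probes above background on all arrays they were 6 and 4. The spike-in probes gave 55 and 1. Of all genes, 13.8% rose with the first scaling and 11.4% with quantile normalization. The share was 6.78% with that percentile, 8.17% with that median and 51.5% with the spike-in probes. Falls of all genes, in the same order, were 15.7%, 10.9%, 23.5%, 21.4% and 5.77%. Relative to the median of all genes, the members' median was 0.18 higher in the main scaling. The scalings to probes above background on all arrays and to the spike-in probes shift whole arrays, so they cannot change this difference. It was 0.07 with quantile normalization and 0.24 with normexp background correction. In the ICC comparison, the median of all genes ran from -0.17 to 0.20. Rises and falls of members were 4 and 31, then 11 and 18 with quantile normalization. They were 15 and 16 with the percentile and 9 and 24 with the median over probes above background on all arrays. Of all genes, 18.5% rose and 29.1% fell in the main scaling. The shares were 29.6% and 15.1% with that percentile, and 23.4% and 20.6% with that median. With quantile normalization the falls were 18 of 76 members where 24.5% of all genes fell, and the members' median stood 0.04 below that of all genes, against 0.24 below it in the main scaling. The ER role then had 4 rises and 6 falls under quantile normalization and under that percentile, and 2 and 8 under that median. Its median stayed below 0 in all 6, from -0.64 to -0.25, as did that of the mitochondrial role, from -0.90 to -0.53. With the lower row alone, an alternative chosen after seeing the data as regards these counts, 19 of 74 members fell (25.7%, against 17.6% of all genes) and 3 rose.

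**Figure D5:**
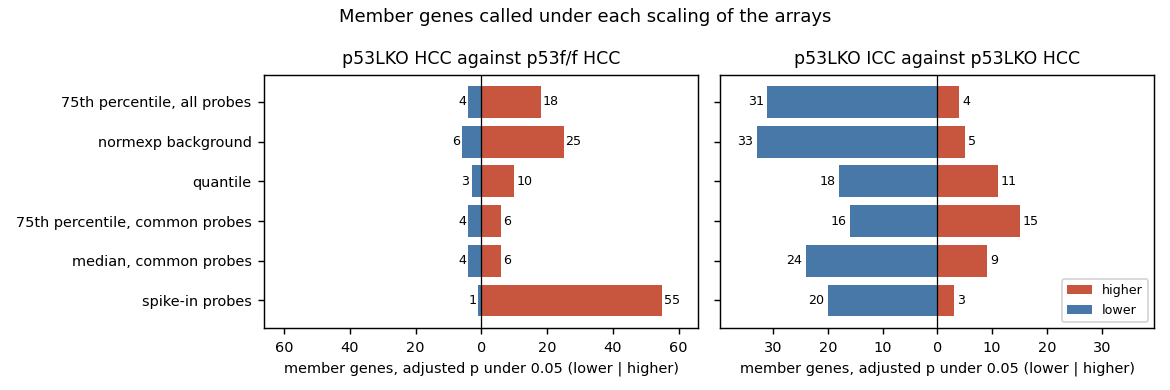
Members with an adjusted p under 0.05 under each scaling of the arrays, lower to the left and higher to the right of 0, for both comparisons. The bars for p53LKO HCC against p53f/f HCC run from 6 higher under scaling to probes above background on all arrays to 55 higher with the spike-in probes, and those for ICC from 16 to 33 lower.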

How the data were processed

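RNA of 15 tumors was labelled with Cy3 and hybridised to 1-colour Agilent mouse arrays, and the deposited scanner files, per the file headers made with Agilent Feature Extraction 10.7.3.1, hold the processed signal intensity of 62976 spots. The authors' value table holds log2 values, which equalled the values computed here after each probe was centred within the 10 HCC and within the 5 ICC arrays, and it served as an alternative for the HCC comparison only. The study's methods name GeneSpring and adjusted p-values, and its results a 2-fold limit.

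Here control spots and outlier spots were left out, spots of a probe were averaged, and log2 of the intensity was reduced by the array's 75th percentile. No spot was saturated. Groups were compared with limma 3.58.1 in R 4.3.3, on the arrays of the 2 groups, with Benjamini-Hochberg adjustment over all probes tested. Figures and promoter searches used Python 3.11.15. The number of arrays limits the precision. Named in both comparisons were the sensors, factors and principal chaperones from a fixed list, and in each comparison up to 10 members in each direction, ordered by size of change, of those past both thresholds. Dimmer probes of a named gene were given where one passed the test and the brightest did not, or where they passed in opposite directions. Other genes were named after their values were seen. The members and lists were chosen with earlier results of these data known.

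The same animal gave an HCC and an ICC in 4 cases, per the labels. Deviations from group means correlated by -0.18 to 0.13 within these pairs and by -0.24 to 0.29 between other tumors. The test was checked on simulated data. Alternatives covered background correction, scaling, filters, probe choice, other tests, slide, row and mouse, and leaving out each tumor. Columns without a sample numbered 0.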

Additional observations from a re-analysis of the deposited data

Results flagged for a closer look

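In 8 of 120 combinations of gene and group tested for an outlying tumor, 1 tumor stood far from the other 4 by Dixon's criterion (gap over range above 0.71), and chance gives about 1 in 20. Levels are on the log2 scale of the report. In p53f/f HCC, Dnajb1 was 3.40 in the tumor of mouse 3716, where the nearest other tumor had 2.86, and Hspe1 was 5.23 in the second tumor of mouse 3717, where the nearest had 6.07. In p53LKO HCC, Dnaja1 was 6.42 in mouse 3733 (nearest 5.82), Pdia4 was 3.20 in mouse 3976 (nearest 2.24), and mouse 3975 had both a high Dnajb11 of 4.49 (nearest 4.09) and a low Hspb1 of 4.24 (nearest 6.27). In ICC, Dnajc3 was 2.03 in mouse 5283 (nearest 2.55) and Sdf2l1 was 0.98 in mouse 3977 (nearest 1.55).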

How the results depend on the processing

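Among members, 3 were higher and 4 lower past both thresholds in p53LKO HCC against p53f/f HCC, with a median log2 fold change of 0.24. The higher count was 1 by the Mann-Whitney test and by the methods' t-test, 18 by adjusted p alone and 36 after the spike-in shift. The lower count was 1 with normexp and after the spike-in shift, and 2 with the mean over all probes, with quantile normalization and with probes required to be above background on every array. The median was -0.01 with the 75th percentile and 0.05 with the median of probes above background on all arrays, and 0.98 after the spike-in shift. For Dnajc5, the mean over all probes reversed the change to 0.23. Leaving out 1 tumor gave 2 to 5 members higher (5 without the p53f/f tumors of mice 3715 or 3716), 2 to 5 lower (2 without that of mouse 3716 or the p53LKO tumor of mouse 3731) and medians of 0.20 to 0.32.

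For ICC against HCC of p53LKO mice, 3 members were higher and 13 lower, with a median of -0.41. The higher count was 5 with the percentile of probes above background on all arrays and 0 with probes required to be so on every array. The lower count was 4 with that percentile, 8 with the median of those probes, 6 with quantile normalization and 31 by adjusted p alone, and the medians were -0.04, -0.21 and -0.14 for the 3 scalings in that order. With the mouse as a replicate block, members gave 2 higher, 11 lower and a median of -0.39. Leaving out 1 tumor gave 2 to 4 higher, 11 to 15 lower and medians of -0.46 to -0.32. The causes of these shifts were not tested. Members measured near background, such as Dnajb8 and Pdia2, have bounds or dim values only.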
